A study of Mus musculus with 12 samples.

Results

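The genes described here are 9 markers of the connective tissue of the fetal mouse ovary, taken by identifier from 55416 annotated genes. Col1a1 (ENSMUSG00000001506), Col1a2 (ENSMUSG00000029661) and Col3a1 (ENSMUSG00000026043) encode chains of fibrillar collagens. Dcn (ENSMUSG00000019929) and Lum (ENSMUSG00000036446) encode the proteoglycans decorin and lumican, and Postn (ENSMUSG00000027750) encodes the matricellular protein periostin. Pdgfra (ENSMUSG00000029231) and Pdgfrb (ENSMUSG00000024620) encode the receptors for platelet-derived growth factors, and Nr2f2 (ENSMUSG00000030551) encodes a nuclear receptor transcription factor, COUP-TFII. All 9 were in the count tables on the stated chromosome, and 8 of the 9 had rows in the table of RNA immunoprecipitation (RIP) ratios. The names come from the list that defined the genes, since the files give identifiers only.

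The study compared Fmr1 knockout (KO) and wild-type (WT) ovaries of mouse embryos at E16.5, with 5 pairs of ovaries pooled per sample. Its target, Fmr1, is the gene of FMRP, which binds mRNAs and controls how they are translated. There were 3 KO and 3 WT input libraries of whole ovary, made without antibody, and 3 KO and 3 WT RIP libraries made with an antibody against FMRP. The strain label is B6.129P2-Fmr1tm1Cgr/J for all 12 libraries, the WT ones included, and the design text calls the WT ovaries littermates. No Cre or transgene is named, and the sources used here do not say whether KO embryos were homozygous. The labels call the samples biological replicates, so p-values measure the spread between pools.

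As background, fibrillar collagens are made as procollagen chains that wind into a triple helix, type I from the chains of Col1a1 and Col1a2 and type III from Col3a1 alone. Decorin and lumican bind collagen fibrils and regulate their width and spacing. Platelet-derived growth factors signal through Pdgfra and Pdgfrb in mesenchymal cells and pericytes, and Nr2f2 is a mesenchymal and stromal marker in the fetal gonad. In a whole ovary these transcripts come from a mixture of cells, and fewer cells of a type and less RNA per cell cannot be told apart.

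The structure of the genes sets the collagens apart from the other 6. Col1a1 (chromosome 11, 94827050 to 94843868, plus strand) had 52 merged exons with a median length of 54 bp, and 21 of them were exactly 54 bp long. Col3a1 (chromosome 1, 45350698 to 45388866, plus strand) had 50 merged exons, 23 of them of 54 bp. Col1a2 (chromosome 6, 4504814 to 4541544, plus strand) had 48, 18 of them of 54 bp. The triple helix is built of Gly-X-Y triplets, so exons that hold whole triplets have lengths that are multiples of 9 bp. Among the inner exons, 42 of 50 in Col1a1, 40 of 48 in Col3a1 and 32 of 46 in Col1a2 had such a length, where 13.4% of inner exons did over all 23698 tested genes. Only 13 tested genes had 18 or more exons of 54 bp. The remaining 6 members had 0 exons of 54 bp.

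Dcn (chromosome 10, 97315471 to 97354005, plus strand) had 9 merged exons and lay 46984 bp from Lum (chromosome 10, 97400990 to 97408565, plus strand), which had 3. Postn (chromosome 3, 54268530 to 54298458, plus strand) had 22. Pdgfra (chromosome 5, 75312953 to 75358876, plus strand) had 27 and Pdgfrb (chromosome 18, 61178222 to 61218133, plus strand) had 24. Nr2f2 (chromosome 7, 70001692 to 70016483, minus strand) had 4, with a median length of 2344 bp. All these positions are those of the count files. Exons under 150 bp held 46.2% of the exonic bases of Col1a1, 28.5% of Col3a1 and 19.3% of Col1a2, against a median of 5.63% over tested genes. The submitters' processing notes name BWA, which does not split reads over introns. Pdgfrb, which is no collagen, also had 27.2% of its exonic bases in such exons. What the placing of reads over exon junctions did to the counts of these genes was not tested.

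**Figure D1:**
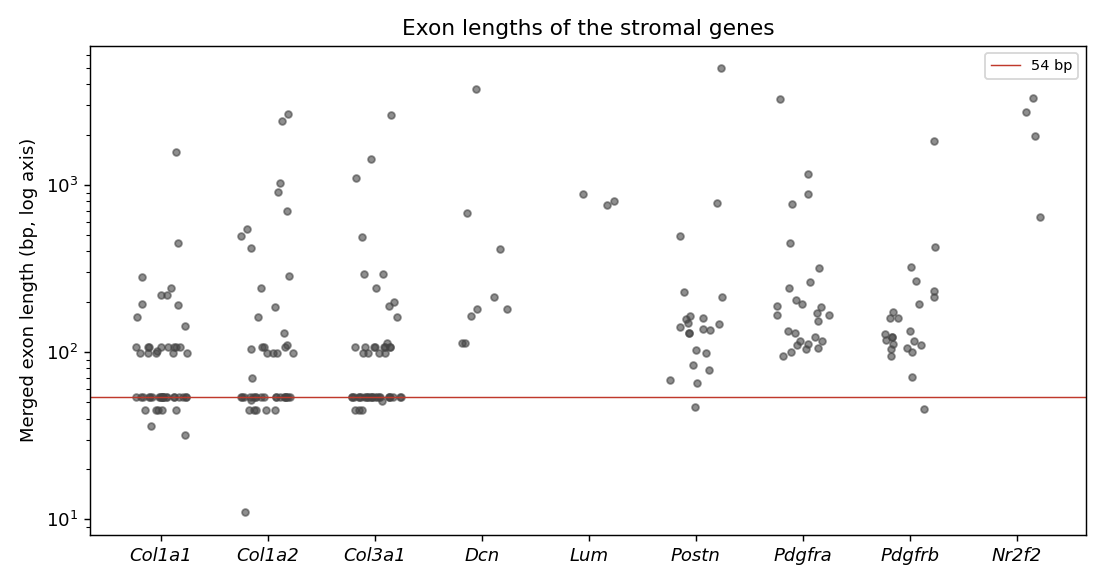
Length of each merged exon (bp, log axis) of the 9 genes, 1 point per exon, with a line at 54 bp. The collagen genes have 52, 48 and 50 exons, most of them short and 18 to 23 of them on the line, while Lum and Nr2f2 have 3 and 4 long exons.

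The promoter sequences of 3 members are shown because these genes had WT replicate 1 as the highest and WT replicate 2 as the lowest input library, as given further on, and because a searched motif lay in their windows. The RefSeq table (GRCm38.p6, with gene positions that differ from those of the count files) held entries for 5 of the 9 members. Each line gives the 150 bases before the start site, 5′ to 3′ on the plus strand, with matches to TATAAA or CCAAT on either strand in capitals.
Col1a2 chr6:4505468-4505617: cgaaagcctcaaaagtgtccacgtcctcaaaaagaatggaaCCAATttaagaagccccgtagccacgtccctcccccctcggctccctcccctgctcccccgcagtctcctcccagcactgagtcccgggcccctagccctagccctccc
Col3a1 chr1:45311388-45311537: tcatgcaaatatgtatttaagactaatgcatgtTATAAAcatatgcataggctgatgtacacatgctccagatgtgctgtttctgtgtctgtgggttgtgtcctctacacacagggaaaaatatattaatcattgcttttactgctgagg
Postn chr3:54360957-54361106: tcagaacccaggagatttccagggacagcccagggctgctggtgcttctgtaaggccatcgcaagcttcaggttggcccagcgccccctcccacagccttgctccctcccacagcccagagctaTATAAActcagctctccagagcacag
TATAAA began 26 bases before the Postn start site and 117 bases before that of Col3a1, and CCAAT began 109 bases before that of Col1a2. The windows of the other start site of Postn and of Pdgfra and Nr2f2 held neither motif. Windows of this length before all 32851 listed start sites held TATAAA in 7.57% and CCAAT in 24.5% of cases. A match describes the letters only and shows no binding.

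The input libraries held 18880238 to 25707718 counted reads. The targeted gene, Fmr1 (ENSMUSG00000000838), had 213 ± 8.47 CPM in the WT libraries and 101 ± 19.8 CPM in the KO libraries (mean ± SD of 3), where CPM is the read count scaled to a common library size with TMM factors, with a log2 change of -1.08 (SE 0.11, adjusted p = 0.00775, edgeR). Markers of other cell types were not analysed here.

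The collagen genes were among the most abundant transcripts of the ovary. By CPM, which takes no account of gene length, Col1a1 ranked 4, Col3a1 7 and Col1a2 10 among 23698 tested genes. By CPM per kb of exon the ranks were lower, at 43 for Col1a1 and 156 for Col1a2, with Col3a1 between them. Col1a1 had 7247, 8394 and 7458 CPM in the KO libraries, in the order of replicates 1 to 3, against 9132, 6766 and 8165 CPM in the WT libraries in the same order. Its highest and its lowest library were both WT, so the KO libraries lay inside the WT range. Col3a1 had 5757, 5937 and 5610 CPM in the KO libraries and 6618, 5517 and 6034 CPM in the WT ones. Col1a2 had 4174, 4433 and 4116 CPM in the KO libraries and 4951, 3913 and 4347 CPM in the WT ones. For both genes WT replicate 1 was the highest library, WT replicate 2 was the lowest, and the groups overlapped.

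Together the 3 collagens took 1.78% ± 0.11 of the reads of KO libraries and 1.83% ± 0.21 of those of WT libraries, as the mean ± SD of 3. These shares ran from 1.63% in WT replicate 2 to 2.04% in WT replicate 1, and the groups did not differ beyond that spread (exact permutation p = 0.7, two-sided, where 3 against 3 allow no p below 0.1). The KO to WT ratio of the shares was 0.971, and 1.03 without WT replicate 1. Over all 9 members the shares were 1.99% ± 0.12 and 2.05% ± 0.22 (exact permutation p = 0.7).

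Levels of different genes can be set side by side only per length, here as CPM per kb of exon. On this scale Col1a1 was highest, with 1173 ± 93.0 for KO and 1222 ± 181 for WT libraries (mean ± SD of 3, as in the sentences that follow). Col3a1 followed, at 588 ± 16.7 and 617 ± 56.1, then Col1a2, at 341 ± 13.6 and 354 ± 41.98. Below the collagens came Dcn, with 110 ± 10.2 in KO and 125 ± 1.85 in WT, and Lum, with 87.5 ± 5.41 and 96.4 ± 5.29. Postn had 53.0 ± 2.71 and 56.0 ± 6.81. Pdgfra, Nr2f2 and Pdgfrb closed the order with means over the 6 libraries of 36.9, 33.1 and 29.3. From Col1a1 down to Pdgfra no neighbours in this order overlapped in any of the 6 libraries. Pdgfra and Nr2f2 overlapped, as did Nr2f2 and Pdgfrb, each pair keeping its order in 5 of 6 libraries. The order depends on the annotated exonic length, which is summed over all annotated transcripts, so it is uncertain where the length term decides it. By CPM, Lum (225, mean of 6 libraries) lay below Postn (474), Pdgfra (369) and Nr2f2 (285). Even Pdgfrb, the lowest, ranked 1552 of the 23698 tested genes per length, so that all 9 were in the upper 6.55%.

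**Figure D2:**
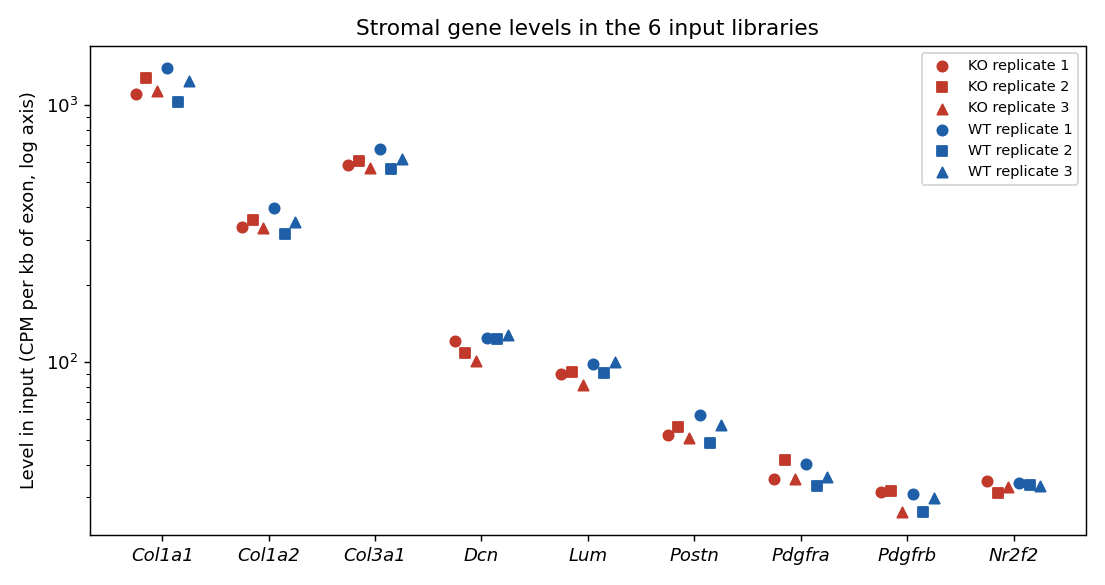
Level of the 9 genes in input (CPM per kb of exon, log axis), 1 point per library, KO in red and WT in blue, with the marker shape giving the replicate. Means fall from 1198 for Col1a1 over 118 for Dcn to 29.3 for Pdgfrb, and the KO and WT points of each gene lie together.

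Type I collagen joins 2 chains of Col1a1 with 1 of Col1a2. Reads of Col1a1 exceeded those of Col1a2 by 1.74-fold, 1.89-fold and 1.81-fold in the KO libraries and by 1.84-fold, 1.73-fold and 1.88-fold in the WT libraries. Per kb of annotated exon the ratio averaged 3.43 ± 0.15 over KO libraries and 3.44 ± 0.15 over WT libraries (SD of 3 libraries each, with an exact permutation p of 1). The change of scale comes from the annotated exonic length, which is 6563 bp for Col1a1 and 12426 bp for Col1a2, summed over all annotated transcripts. The counts do not show which of these transcripts were present, so the size of this ratio is uncertain while its steadiness across libraries is not affected by length. The Pdgfra to Pdgfrb ratio of reads per kb was 1.26 ± 0.12 in KO and 1.26 ± 0.048 in WT (exact permutation p = 1). The Dcn to Lum ratio per kb was 1.26 ± 0.080 in KO and 1.30 ± 0.059 in WT (exact permutation p = 0.5). The size of these 2 ratios depends on annotated length as well. In raw reads the Pdgfra to Pdgfrb ratio averaged 2.31 in KO and 2.31 in WT, and the Dcn to Lum ratio 3.00 and 3.10. None of the 3 ratios differed between genotypes beyond the spread of the libraries.

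The input libraries address whether the stromal transcripts differed in abundance between KO and WT input. None of the 9 members passed the test, where 10 of 23698 genes passed, which is 0.0422% (edgeR's quasi-likelihood test, Benjamini-Hochberg adjusted p under 0.05). That number of genes was 37 without KO replicate 1, 5 without KO replicate 2 and 28 without WT replicate 2, with 0 members in each. The log2 changes, KO over WT, ran from -0.18 to 0.045, with 7 below 0 and 2 above 0. Their median was -0.059, beside -0.0020 over all tested genes, of which 11969 were below 0 and 11729 above 0. Without WT replicate 1, 4 members were below 0, and without WT replicate 2 all 9 were. The counts over all tested genes are not given for these 2 fits, so a shift of all genes cannot be told from one of the members.

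Dcn had the largest estimate. It had 707, 634 and 588 CPM in the KO libraries and 726, 721 and 742 CPM in the WT ones. All 3 KO libraries lay below all 3 WT libraries, as did those of 5.69% of the tested genes, while 5.22% lay the other way round, none of them a member. The KO mean was 88.1% of the WT mean, with a log2 change of -0.18 (SE 0.064, unadjusted p = 0.00906, adjusted p = 0.639, edgeR), so Dcn did not pass. The KO libraries spread over 59.8 CPM (SD), against 10.8 CPM in WT. The estimate was -0.12 without KO replicate 3, the lowest library, and -0.26 without KO replicate 1.

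Lum, its neighbour on chromosome 10, had 220, 223 and 199 CPM in the KO libraries and 240, 221 and 246 CPM in the WT ones. KO replicate 3 was again the lowest library, and KO replicate 2 lay above WT replicate 2, so that the groups overlapped. The log2 change was -0.14 (SE 0.066, unadjusted p = 0.0464, adjusted p = 0.829, edgeR). Dcn and Lum were the 2 members with an unadjusted p under 0.05, both lower in KO, where 3.00% of tested genes were lower and 2.90% higher in KO at that level.

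The fibrillar collagens had smaller estimates. Their log2 changes were -0.059 for Col1a1 (SE 0.11, adjusted p = 0.983), -0.054 for Col1a2 (SE 0.069, adjusted p = 0.977) and -0.070 for Col3a1 (SE 0.059, adjusted p = 0.964, edgeR). The 95% interval of the estimate, taken as normal around it with the SE, was -0.28 to 0.16 for Col1a1, -0.19 to 0.080 for Col1a2 and -0.19 to 0.044 for Col3a1, so that changes within these ranges are not excluded by the data. Without WT replicate 1 the estimates of Col1a1 and Col1a2 turned to 0.045 and 0.039.

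Postn, a secreted protein that binds collagen and is found in collagen-rich tissue, had 454, 488 and 442 CPM in the KO libraries and 541, 424 and 495 CPM in the WT ones. The 6 libraries of Postn and those of Col3a1 stood in the same order, from WT replicate 2, KO replicates 3, 1 and 2 and WT replicate 3 to WT replicate 1. The Postn log2 change was -0.077 (SE 0.075, adjusted p = 0.976, edgeR).

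Pdgfra, the receptor that marks much of the fetal mesenchyme, had 352, 418 and 353 CPM in the KO libraries and 404, 330 and 360 CPM in the WT ones. KO replicate 2 was its highest library and WT replicate 2 its lowest. Pdgfrb, which also marks pericytes, had 172, 173 and 144 CPM in the KO libraries and 169, 143 and 162 CPM in the WT ones. The 2 receptors were the only members with estimates above 0, at 0.037 for Pdgfra (SE 0.078, adjusted p = 0.985) and 0.045 for Pdgfrb (SE 0.078, adjusted p = 0.981, edgeR). Without WT replicate 2 both estimates were below 0.

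Nr2f2 had 297, 267 and 283 CPM in the KO libraries and 293, 287 and 284 CPM in the WT ones. It varied least of the 9, with a coefficient of variation of 3.67% over the 6 libraries, where Col1a1 varied most, at 10.99%. Its log2 change was -0.030 (SE 0.061, adjusted p = 0.985, edgeR).

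**Figure D3:**
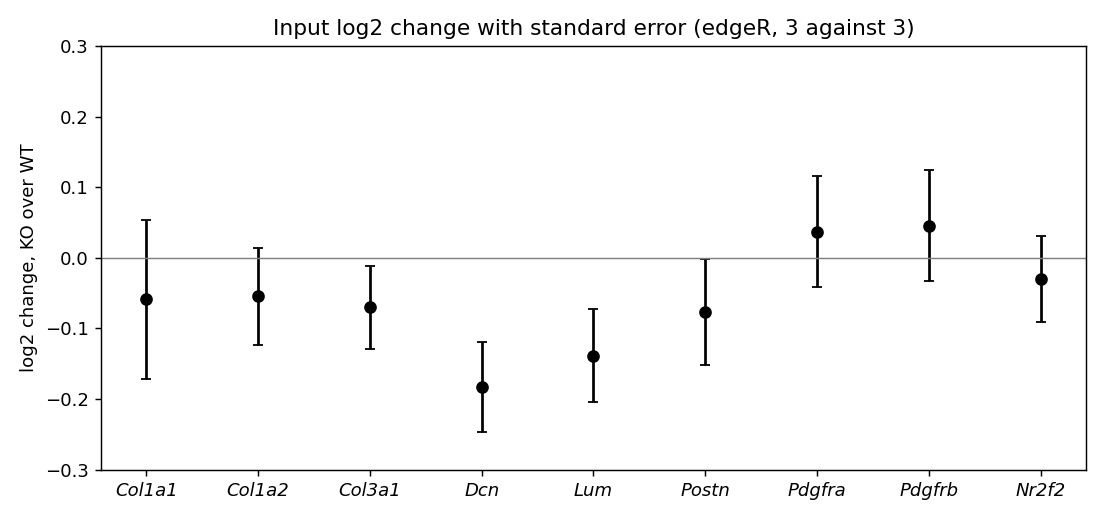
Log2 change of each gene in input, KO over WT, from edgeR, with bars of 1 standard error and 3 libraries per genotype. The points run from -0.18 for Dcn to 0.045 for Pdgfrb, and none passed the adjusted threshold.

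Groups of members shared their lowest or highest library, though mostly not the full order. For 8 of the 9 the KO and WT libraries were intermixed, Dcn being the exception. WT replicate 2 was the lowest library for 6 of the 9 genes, namely the 3 collagens, Postn and the 2 receptors. WT replicate 1 was the highest for 4, the 3 collagens and Postn. Dcn and Lum differed from these, with KO replicate 3 lowest and WT replicate 3 highest for both. Nr2f2 had KO replicate 2 lowest and KO replicate 1 highest. The highest library exceeded the lowest by 1.35-fold for Col1a1, 1.28-fold for Postn, 1.26-fold for Dcn and 1.11-fold for Nr2f2. Outside the members, the genes whose levels were most like the mean standardized level of the 9 over the 6 libraries were ENSMUSG00000109086 (Pearson r = 0.993) and ENSMUSG00000085655 (Pearson r = 0.990). Their mean levels were low, at 6.94 and 0.799 CPM. With 6 libraries and this many genes, such values of r describe the ranking only.

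**Figure D4:**
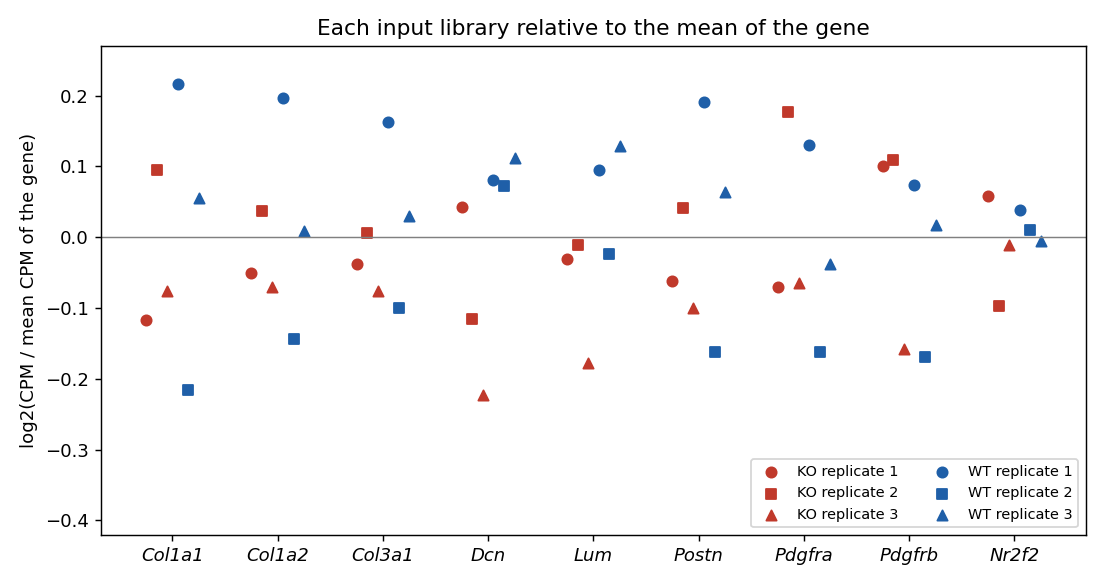
Level of each input library relative to the mean of the gene (log2 of CPM over mean CPM), KO in red and WT in blue, with the marker shape giving the replicate. WT replicate 1 is the highest point for the 3 collagens and Postn, and WT replicate 2 is the lowest point for these and the 2 receptors.

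The RIP libraries address whether the antibody against FMRP enriched stromal transcripts in WT over the KO background. The RIP table gives a fold enrichment, a linear ratio of the authors, for 14447 rows of 7525 genes, and the sources used here do not give its denominator. The 8 members with rows had 55 rows in all. None of the 54 rows tested passed, as did 0% of all 14365 tested rows (limma, adjusted p under 0.05), and none was under an unadjusted p of 0.05, where 8.85% of all tested rows were. The smallest unadjusted p among the member rows was 0.107 and the smallest adjusted p was 0.661.

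The collagens had many rows and high ratios in both genotypes. Col3a1 had 14 rows, Col1a2 had 13 and Col1a1 had 8, while 42.2% of the genes in the table had more than 1 row. Only 133 genes had 8 or more rows and 18 had 14 or more. The median over the rows' means was 11.5 for Col1a2, 4.57 for Col3a1 and 3.49 for Col1a1, against 1.77 over all rows of the table.

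The highest row of Col1a2 had ratios of 143, 105 and 79.8 in the KO libraries, in the order of replicates 1 to 3, against 86.7, 44.5 and 46.0 in the WT libraries in the same order. Its mean of 84.1 ranked 5 of 14447 rows. WT replicate 1 lay above KO replicate 3, so the groups overlapped. The KO mean was 109 ± 31.7 and the WT mean 59.1 ± 23.9 (SD of 3 libraries each), a KO to WT ratio of 1.85. On the log2(value + 1) scale the WT over KO difference was -0.90 (SE 0.96, adjusted p = 0.819, limma). It was -0.26 after quantile normalization. The next row of Col1a2 had 36.1, 24.6 and 45.4 in KO and 24.5, 22.2 and 27.1 in WT.

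For Col3a1 the highest row had 32.6, 36.8 and 29.9 in KO and 37.8, 29.9 and 31.0 in WT. The KO mean of 33.1 ± 3.46 and the WT mean of 32.9 ± 4.30 differed by less than their spread. Its second row had 13.4, 12.9 and 10.3 in KO and 10.6, 9.50 and 11.5 in WT. The remaining rows of Col3a1 had means of 1.32 to 7.36.

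For Col1a1 the highest row had 5.57, 5.20 and 5.02 in KO and 5.43, 4.58 and 5.61 in WT, so that the groups overlapped. The second row had 5.61, 4.70 and 5.26 in KO and 4.53, 3.89 and 3.41 in WT, with every KO library above every WT library. The KO to WT ratio of that row was 1.32 (log2 difference WT over KO -0.33, SE 0.21, adjusted p = 0.718, limma). All 8 rows of Col1a1 had a higher KO mean, with a median KO to WT ratio of 1.19.

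Over the 35 rows of the 3 collagens, the KO mean lay above the WT mean in 32, which is 91.4%, as it did in 50.9% of all rows and in 57.2% of the 1311 rows with a mean of at least 4. The median KO to WT ratio was 1.13, and 1.00 over all rows. The groups did not overlap in 11 collagen rows with KO above WT (6.75% of all rows, 2.82% of rows with a mean of at least 4) and in 2 with WT above KO (8.40% and 4.58%). The collagen counts were not limited by the mean, which ran from 1.30 to 84.1 over the 35 rows. The shares at a mean of at least 4 are thus for an unlike set. Rows of 1 gene share their transcript and their libraries, so the 35 rows are not independent observations. Of the 11 rows, 6 belonged to Col3a1, 4 to Col1a1 and 1 to Col1a2. The 2 rows with WT above KO both belonged to Col3a1, the larger with 6.32, 6.75 and 6.80 in KO and 6.83, 7.41 and 7.73 in WT.

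With each library left out in turn, 27 to 32 of the 35 collagen rows had a higher KO mean, the lowest count being that without WT replicate 2 or WT replicate 3. Of all rows, 45.5% (without KO replicate 2) to 52.7% (without WT replicate 1) had a higher KO mean in these cases. WT replicate 2 was the lowest library in 16 of the 35 rows and WT replicate 3 in 12. KO replicate 1 was the highest in 15 and KO replicate 2 in 10. The number of rows with no overlap and KO above WT was 20 without KO replicate 3 and 19 without WT replicate 1. With 1 library fewer, 11.6% and 14.4% of all rows also had no overlap in that direction. The number was 13 without KO replicate 1, 12 without KO replicate 2, 11 without WT replicate 2 and 12 without WT replicate 3. In these cases 10.8% to 12.2% of all rows had no overlap in that direction. The 99th percentile over all rows was 10.4, 25.1 and 17.1 in KO and 21.7, 10.3 and 11.6 in WT, so the libraries differed in the height of their top ratios. After quantile normalization, which makes these distributions alike, 26 of the 35 rows had a negative WT over KO difference, against 31 with centring on the median. The share of all rows with such a difference is not given for either setting.

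**Figure D5:**
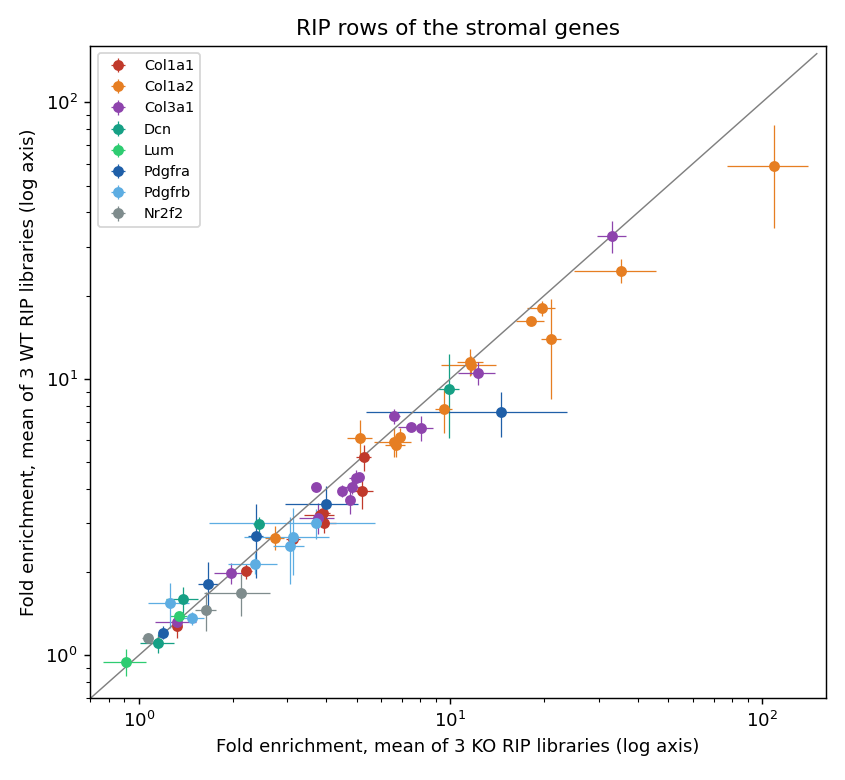
Mean fold enrichment of the 55 RIP rows of 8 genes in WT against KO (both log axes), 1 point per row coloured by gene, with bars of 1 SD over 3 libraries and a line of equal values. Most collagen points lie below the line, with the highest Col1a2 row at 109 in KO and 59.1 in WT, and the points of the other genes lie on both sides.

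Of the 20 rows of the 5 other members, 11 had a higher KO mean and 9 a higher WT mean. Dcn had 4 rows, and the highest had 9.27, 9.60 and 10.8 in KO and 8.31, 6.69 and 12.6 in WT. WT replicates held both the lowest and the highest value of that row. Its second row had 2.53, 2.44 and 2.33 in KO and 2.78, 3.04 and 3.14 in WT. That was the only row of these 5 genes whose groups did not overlap, with a WT to KO ratio of 1.23 (log2 difference 0.22, SE 0.13, adjusted p = 0.673, limma). Of all rows of the table, 8.40% had no overlap with WT above KO and 6.75% had none with KO above WT.

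Lum had 2 rows, which ranked 12232 and 14431 of 14447 by their mean. The higher had 1.30, 1.44 and 1.30 in KO and 1.42, 1.37 and 1.36 in WT. The other, with a KO mean of 0.913 ± 0.14 and a WT mean of 0.949 ± 0.10, had a mean under 1 and was the 1 member row left out of the test.

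The highest row of Pdgfra had 11.7, 7.10 and 24.8 in KO and 7.99, 8.76 and 6.01 in WT. KO replicate 3 stood apart from the other 5 libraries. The WT over KO difference of -0.70 (SE 0.53, adjusted p = 0.755, limma) was -0.25 without KO replicate 3. It ranged from -1.10 to -0.57 with any 1 of the other libraries left out. The 6 ratios of this row were also listed for ENSMUSG00000099060, a gene of 74 bp (chromosome 5, 75337492 to 75337565, plus strand). That gene lies within Pdgfra and shares 30 bp with 1 of its exons. Since position and values are shared, these ratios cannot be assigned to 1 of the 2 genes. The small gene had 0 to 2 counts per input library. The 4 other rows of Pdgfra had means of 1.20 to 3.76, and their groups overlapped.

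Pdgfrb had 6 rows with means of 1.40 to 3.36. The highest had 2.49, 2.59 and 6.05 in KO and 3.01, 3.38 and 2.64 in WT. KO replicate 3 again stood apart, and the WT over KO difference of -0.16 became 0.18 without it. Nr2f2 had 3 rows, and the highest had 1.81, 2.72 and 1.86 in KO and 2.02, 1.47 and 1.56 in WT, with overlapping groups.

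Postn had no row in the table, although 474 CPM stood behind it in input (mean of 6 libraries). Of the 141 tested genes at least as abundant, 39 had no row, which is 27.7%. Among members, Pdgfra, Nr2f2, Lum and Pdgfrb were less abundant in CPM than Postn and had rows. The sources used here do not say how rows were chosen, so the missing row does not show that the transcript was not enriched.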

How the data were processed

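The counts are reads per gene without normalization, deposited by the authors. Per the file headers, they were made with featureCounts 1.6.3 over exons by gene identifier, with Ensembl release 104, and with no option for strand, read pairs or several placements. Exons of other genes shared 652 bp with Pdgfra, 643 bp with Nr2f2 and 141 bp with Col3a1, where reads cannot be assigned to 1 gene. The submitters' processing notes name GRCm38 and BWA 0.7.12, beside MACS2 2.1.0, DESeq2 and FastQC, with no role stated for any of them. The gene positions of the count files differ from those of GRCm38.p6, so they are not to be read as GRCm38 positions. The RIP values are a ratio (fold enrichment) deposited by the authors, 1 column per library, with no read depth.

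For the input counts, KO over WT, edgeR 4.0.16 in R 4.3.3 gave the main test (TMM, filterByExpr, robust quasi-likelihood, Benjamini-Hochberg over all genes). SEs are the estimate over the square root of F. For the RIP ratios, WT over KO, limma 3.58.1 was fitted to log2(value + 1) after centring each column on its median, with a trended prior, leaving out rows whose mean was under 1; this scale understates differences of low ratios. Shares of reads and ratios of genes were put to exact permutation tests, both sides. Alternatives included DESeq2 1.42.0. Replicate libraries differed by more than sampling noise (chi-square over its degrees of freedom between 7.03 and 12.1). The members, lists and tests were chosen with earlier results of these data known. All members were named, with Fmr1 as the targeted gene and the 2 genes most like them. Lists of related genes were not used, since the tables at hand pair 0 of the identifiers with names.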

Additional observations from a re-analysis of the deposited data

How the results depend on the processing

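No member passed in the input test or the RIP test under any alternative run, and Fmr1 stayed lower in KO under all 10 input alternatives (log2 change -1.25 to -0.97). The count of 10 input genes became 113 with no low-count filter, 41 with DESeq2, 20 with the replicate block and 5 to 37 with a library left out; the cause was not tested. With a library left out, the KO to WT ratio of shares ranged from 0.922 to 1.02 over the members and from 0.920 to 1.03 for the collagens, and, as KO over WT, the Col1a1 to Col1a2 ratio from 0.975 to 1.02 and that of Pdgfra to Pdgfrb from 0.966 to 1.05. The log2 change ranged from -0.17 to 0.045 for Col1a1, -0.13 to 0.039 for Col1a2 and -0.17 to 0.0071 for Postn, above 0 for all 3 genes without WT replicate 1. It ranged from -0.049 to 0.12 for Pdgfra (-0.029 without WT replicate 2), -0.022 to 0.13 for Pdgfrb and -0.068 to 0.010 for Nr2f2. The cause was not tested.

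The RIP count of 0 became 1 with no filter on low values, and that row was not a member's. Quantile normalization turned the highest rows of Col3a1 and Dcn to 0.44 and 0.042, and moved that of Col1a2 from -0.90 to -0.26. With a library left out, the log2 difference of the highest row ranged from -0.069 to 0.059 for Col1a1, -1.20 to -0.68 for Col1a2, -0.10 to 0.058 for Col3a1, -0.36 to 0.053 for Dcn and -0.32 to 0.18 for Pdgfrb. All counts over collagen rows by direction or overlap, with all libraries and under each alternative, and the counts of members below 0 were chosen after seeing the data. Same-numbered libraries were not taken as pairs: their deviations had correlations of -0.11, -0.051 and -0.071 for input and of -0.60, -0.34 and -0.22 for RIP. With the replicate block 0 members passed in both tests. Depth behind the RIP ratios is unknown, and 3 libraries per group limit both tests.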
